A study of Mus musculus with 19 samples.

Results

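The genes described here encode the chains of collagens in mouse liver. They are the rows of a gene-level read count table whose symbol has the form of a collagen chain (Col, a type number, a, a chain number) and that hold at least 50 counts in total over 19 libraries. Of 24421 symbols, 44 have such a name and 33 reach the minimum; 30 of the 33 passed the filter on low counts and were tested among 13293 genes. Col9a3, Col4a4 and Col4a6 reached the minimum but were not tested. Just inside the minimum were Col4a6 with 77 counts and Col9a3 with 91, and just outside it Col28a1 with 35 and Col17a1 with 27.

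Liver RNA was sequenced from mice on a purified normal diet injected 2 times a week over 3 weeks with an antisense oligonucleotide (ASO), a synthetic strand that binds its matching RNA in the cell and lowers it. The PLIN5 ASO targets Plin5, the gene of perilipin 5, a protein on the surface of lipid droplets; the other mice received a control ASO. All mice were fasted overnight, and the re-fed ones then had food for 4 h before the liver was taken. The groups were re-fed PLIN5 ASO (5 libraries), re-fed control ASO (5 libraries), fasted PLIN5 ASO (5 libraries) and fasted control ASO (4 libraries, numbered 1, 3, 4 and 5). The sources used here give no strain, sex or age, every group had an oligonucleotide, and 1 oligonucleotide against Plin5 is named, so that an effect of lower Plin5 cannot be told apart from another effect of this ASO. The labels do not say that the replicates of a group are separate animals, so the p-values measure the spread between these libraries.

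Collagens are trimers of long chains that share a triple helix. Fibrillar collagens (types I, III, V, XI, XXIV and XXVII) form fibres, type IV forms the network of basement membranes, type VI forms beaded filaments, FACIT collagens sit on the surface of fibrils, and the multiplexins XV and XVIII join basement membranes to the tissue around them. In liver the fibrillar collagens come mainly from stellate cells and portal fibroblasts and are best known for their rise in fibrosis, while hepatocytes are a known source of type XVIII.

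Library totals lay between 24.9 and 66.9 in units of 1e6 counts, the highest in re-fed PLIN5 ASO 5. Plin5 stood at 3.91 to 11.8 CPM (counts scaled to 1e6 per library after TMM normalisation) in re-fed PLIN5 ASO, against 27.3 to 51.8 CPM with control ASO, and at 6.14 to 13.0 CPM in fasted PLIN5 ASO, against 35.0 to 38.4 CPM with control ASO. The summed level of 8 hepatocyte markers was at least 86343 CPM in every library. Arntl, a core clock activator, set 4 libraries apart, with 14.6 and 15.0 CPM in replicates 3 and 5 of fasted PLIN5 ASO and 23.8 and 45.0 CPM in replicates 3 and 5 of re-fed control ASO; elsewhere it was at most 4.87 CPM. These are called the clock-shifted libraries. Fasted control ASO 3 and 4 differed from each other less than any other pair within a group (chi-square per degree of freedom 3.28, next lowest 19.5), so that n = 4 holds only if they are separate animals.

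Col18a1, the chain of type XVIII collagen whose C-terminal fragment is endostatin, was by far the most abundant collagen RNA per length. In deposited FPKM (fragments per kilobase of transcript, scaled to sequencing depth) it held 75.4% to 86.0% of the sum over the 33 genes, with a median of 82.6%, and averaged 192.7 FPKM. Its level was 200, 181, 196, 187 and 202 FPKM in re-fed PLIN5 ASO 1 to 5, against 185, 156, 202, 191 and 204 FPKM in re-fed control ASO 1 to 5. The fasted PLIN5 ASO libraries 1 to 5 held 194, 203, 217, 189 and 212 FPKM, against 197, 183, 183 and 177 FPKM in fasted control ASO 1, 3, 4 and 5. The groups overlapped in every comparison. Its log2 fold changes were the smallest in error of the 30 genes: 0.12 (95% interval -0.05 to 0.30) for PLIN5 ASO against control ASO in fasted liver, 0.03 (-0.13 to 0.20) in re-fed liver, -0.00 (-0.18 to 0.17) for re-feeding with control ASO and -0.09 (-0.26 to 0.07) with PLIN5 ASO. Col18a1 spans bases 77052178 to 77166548 of chromosome 10, minus strand (GRCm38, GENCODE vM21), and overlaps Slc19a1 on the other strand. The sources used here do not say whether counting used strand, so reads of the overlapping stretch cannot be assigned to either gene.

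The next in order of mean FPKM were Col27a1 (12.7 FPKM), Col5a3 (9.26 FPKM), Col3a1 (3.56 FPKM), Col14a1 (3.36 FPKM), Col4a2 (3.28 FPKM), Col4a1 (2.64 FPKM), Col1a2 (1.70 FPKM), Col6a1 (1.45 FPKM), Col1a1 (1.10 FPKM) and Col15a1 (0.993 FPKM). The ranges of neighbours in this order overlapped over the 19 libraries from Col27a1 down. The type XXVII and type V fibrillar chains Col27a1 and Col5a3 thus stood above the classical fibril chains Col3a1, Col1a2 and Col1a1. The other 22 genes averaged 0.896 FPKM or less, and the lowest, Col4a4, averaged 0.0157 FPKM. Col2a1 and Col19a1 had no counts, and Col11a1, a chain of cartilage fibrils like Col2a1, had 1 count in all 19 libraries together.

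**Figure D1:**
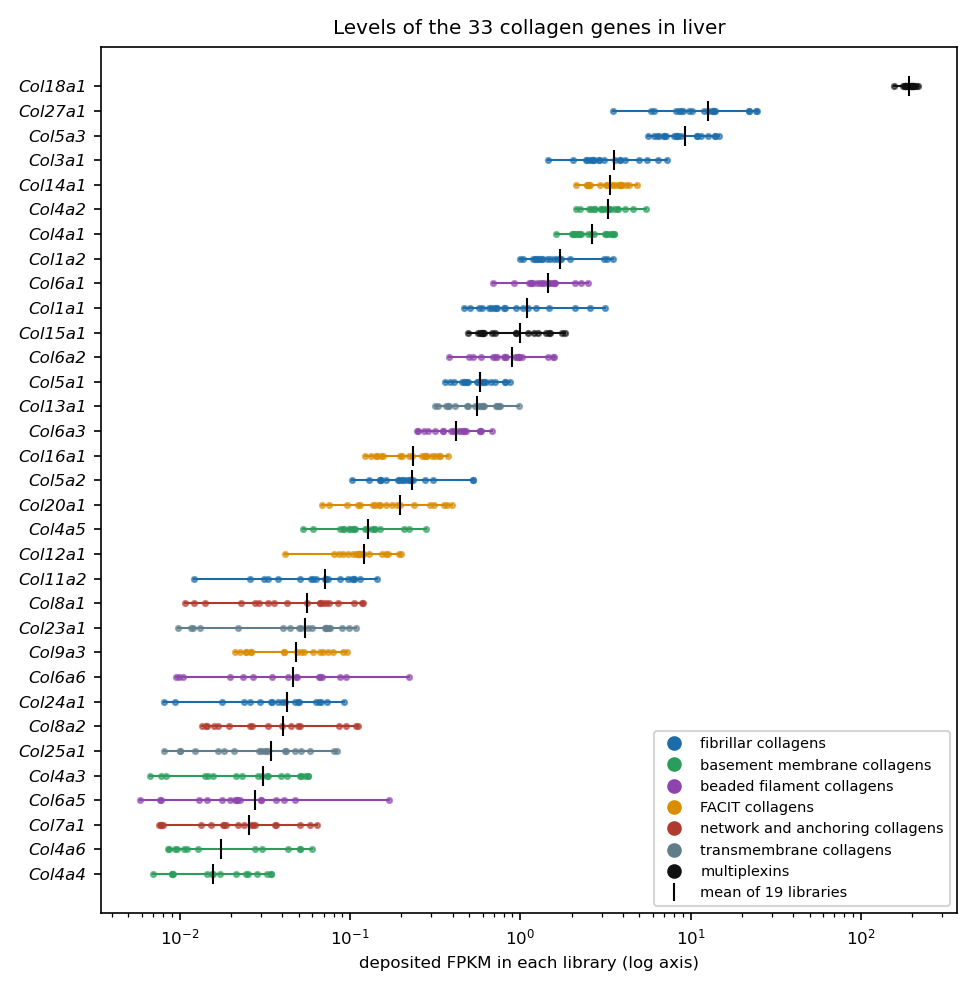
Deposited FPKM of the 33 collagen genes (log axis), 1 point per library, coloured by collagen class, with a black bar at the mean of 19 libraries; libraries at 0 FPKM are not drawn. Col18a1 stands at 156 to 217 FPKM, above every other collagen gene in every library.

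The first comparison set PLIN5 ASO against control ASO in fasted liver. The fibrillar chains Col1a2 and Col3a1 and the FACIT collagen Col14a1 were higher with PLIN5 ASO, 2.09-fold, 2.22-fold and 1.55-fold. These 3 of the 30 genes were called (adjusted p under 0.05 by edgeR's quasi-likelihood test, Benjamini-Hochberg over all genes tested), and no collagen gene was called lower, where 0.602% of all genes tested were called higher, 0.572% lower and 1.17% in either direction. They were also the 3 collagen genes whose groups did not overlap, where 2.87% of all genes had every PLIN5 ASO library above every control library and 4.26% had every one below. The median log2 fold change of the collagen genes tested was 0.63, with 24 of 30 above 0, against a median of 0.01 over all genes tested. Without the 4 clock-shifted libraries the collagen median was 0.44, with 23 of 28 above 0.

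Col1a2 encodes the second chain of type I collagen, the main fibril protein of scar tissue. It stood at 9.32, 8.40, 18.8, 19.1 and 17.9 CPM in fasted PLIN5 ASO 1 to 5, against 6.74, 8.06, 7.26 and 6.05 CPM in fasted control ASO 1, 3, 4 and 5. PLIN5 ASO libraries 3, 4 and 5 were high and libraries 1 and 2 lay just above the control range. The log2 fold change was 1.06 (SE 0.22, adjusted p = 0.0258 by edgeR's quasi-likelihood test). Col3a1, the single chain of type III collagen, which forms thin fibres together with type I, stood at 18.4, 16.1, 41.6, 39.1 and 34.0 CPM, against 16.0, 12.7, 15.5 and 9.45 CPM in the control libraries. The lowest PLIN5 ASO library and the highest control library were 16.1 and 16.0 CPM, and libraries 3, 4 and 5 were again the high ones. Its log2 fold change was 1.15 (SE 0.26, adjusted p = 0.0333 in the same test). Col14a1, a FACIT collagen that binds fibrils and regulates their diameter, differed in pattern: it stood at 24.1, 28.1, 27.3, 30.3 and 32.0 CPM, against 19, 18.8, 19.2 and 16.2 CPM in the control libraries. All 5 PLIN5 ASO libraries lay clear of the control range, and the log2 fold change was 0.63 (SE 0.14, adjusted p = 0.0275 in the same test).

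On GRCm38 (GENCODE vM21), Col1a2 spans bases 4504814 to 4541544 of chromosome 6, Col3a1 45311538 to 45349706 of chromosome 1 and Col14a1 55307750 to 55520803 of chromosome 15, all on the plus strand. A stretch of Col14a1 is also covered by antisense annotations, and Col1a2 and Col3a1 overlap Gm43921 and Gm47302 on the same strand. The promoters of Col1a2 and Col3a1, whose RNA was high in the same 3 libraries, and of Col15a1, the gene called in a pair of comparisons, are shown for the letters they hold. Each is the RefSeq window from 250 bases before to 50 after a gene's start (GRCm38.p6), at chr6:4505368-4505667, chr1:45311288-45311587 and chr4:47207762-47208061, all on the plus strand. The RefSeq start of Col1a2 lies inside the GENCODE gene and that of Col15a1 before it. Capitals mark the TATA box letters TATAAA, the CCAAT box and the GC box letters GGGCGG, on either strand. The E-box CACGTG and, for AP-1, the letters TGANTCA were searched as well and were in none of the 3.
Col1a2: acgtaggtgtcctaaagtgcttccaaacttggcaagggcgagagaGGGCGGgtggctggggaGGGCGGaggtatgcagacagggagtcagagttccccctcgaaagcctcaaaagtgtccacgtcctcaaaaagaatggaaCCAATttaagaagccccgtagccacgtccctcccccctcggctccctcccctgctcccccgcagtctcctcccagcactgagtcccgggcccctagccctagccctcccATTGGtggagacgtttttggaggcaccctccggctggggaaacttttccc
Col3a1: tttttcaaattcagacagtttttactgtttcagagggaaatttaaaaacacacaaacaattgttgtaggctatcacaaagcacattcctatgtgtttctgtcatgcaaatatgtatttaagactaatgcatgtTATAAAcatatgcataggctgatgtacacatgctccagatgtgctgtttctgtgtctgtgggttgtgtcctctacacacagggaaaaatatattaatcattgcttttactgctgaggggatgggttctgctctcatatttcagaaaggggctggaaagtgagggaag
Col15a1: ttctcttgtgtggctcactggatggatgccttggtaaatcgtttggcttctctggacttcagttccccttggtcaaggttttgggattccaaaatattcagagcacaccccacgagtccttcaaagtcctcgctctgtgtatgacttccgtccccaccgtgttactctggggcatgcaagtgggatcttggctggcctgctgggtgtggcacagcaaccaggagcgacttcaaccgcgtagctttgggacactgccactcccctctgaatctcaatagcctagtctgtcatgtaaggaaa
With the start base as position 1 and no position 0, the Col1a2 window held GGGCGG at -205 and -188 and CCAAT at -109 and, on the other strand, at 1. The Col3a1 window held TATAAA at -117 and none of the other motifs, and the Col15a1 window held none of the 5. Of 32851 promoters of the same length 13.6% held TATAAA, 37.4% held the CCAAT box, 35.7% held GGGCGG, 7.15% held the E-box and 7.81% held the AP-1 letters. The table has 29 windows for 27 of the collagen genes. In the same order 3, 9, 19, 0 and 1 of these genes held the letters in any of their windows. These counts are of genes and the shares above are of single promoters, so the units differ. The matches did not overlap one another in the windows shown. A match is a description of these letters and not a binding site.

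Among the other fibrillar chains, Col1a1, the partner of Col1a2, stood at 4.72, 3.74, 15.4, 13.2 and 10.8 CPM in fasted PLIN5 ASO 1 to 5, against 4.06, 4.40, 3.87 and 2.37 CPM in the control libraries. Libraries 3, 4 and 5 were above the rest and library 2 lay within the control range. Its log2 fold change of 1.38 (SE 0.39) had an adjusted p of 0.0922 by edgeR's quasi-likelihood test. Col5a2, a chain of the type V collagen that starts fibrils, had 1.09 (SE 0.32, adjusted p = 0.106). Col5a1 had 0.40, Col11a2 0.64, Col27a1 0.14, Col5a3 -0.14 and Col24a1 -0.23 (adjusted p 0.416 or more). The 2 most abundant fibrillar chains were therefore among those without a detectable difference: Col5a3 stood at 41.2, 43.3, 74.5, 43.1 and 56.1 CPM in the PLIN5 ASO libraries, against 53.8, 48.2, 50.5 and 74.9 CPM in the controls, and the groups overlapped over most of their range.

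The beaded filament chains had positive values in all 5 genes tested. Col6a3, the long chain of type VI collagen whose C-terminal fragment is endotrophin, had a log2 difference of 0.78 (SE 0.21, adjusted p = 0.0700 by edgeR's quasi-likelihood test), Col6a1 0.64 (adjusted p = 0.173) and Col6a2 0.54 (adjusted p = 0.409). Col6a6 and Col6a5, at 1.56 and 1.59 CPM at most, had 1.17 and 1.20 with standard errors of 0.61 and 0.87. None of the 5 was called.

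None of the 4 basement membrane chains tested was called. Col4a2 stood at 39.6, 22.8, 27.5, 19.4 and 26.2 CPM in fasted PLIN5 ASO 1 to 5, against 21.7, 21.6, 18.8 and 23.1 CPM in the control libraries, which gave 0.35 on the log2 scale (SE 0.20, adjusted p = 0.436). Here library 1 was the highest, and libraries 3, 4 and 5 did not stand out. Col4a1, its partner in the common type IV trimer, had 0.43 (SE 0.19, adjusted p = 0.294), Col4a5 0.86 (SE 0.35, adjusted p = 0.240) and Col4a3 0.12 (SE 0.39, adjusted p = 0.919). Col4a1 and Col4a2 lie head to head on chromosome 8, on the minus and the plus strand, and their annotated starts, 11312826 and 11312805, lie 21 bases apart with the transcripts overlapping. The stretch between and around the starts, chr8:11312777-11312854 on the plus strand, is shown because both genes start within it; capitals mark GGGCGG.
Col4a1 and Col4a2: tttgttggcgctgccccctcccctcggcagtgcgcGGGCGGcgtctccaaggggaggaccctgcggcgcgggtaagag
Reads from the overlap cannot be assigned to either gene without strand.

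Of the remaining classes, the network-forming and anchoring chains Col8a1, Col8a2 and Col7a1 had 0.92, 1.78 and 0.75, with standard errors of 0.61, 0.78 and 0.46 and levels under 1 CPM. Col15a1 had 0.71 (SE 0.22, adjusted p = 0.123), at 6.02, 3.68, 8.28, 5.83 and 4.60 CPM in the PLIN5 ASO libraries, against 3.63, 3.76, 3.09 and 3.40 CPM in the controls; the groups overlapped at library 2 alone. Among FACIT collagens Col20a1 had -0.66 (SE 0.26, adjusted p = 0.224) and Col16a1 0.52 (SE 0.28, adjusted p = 0.396). The transmembrane collagens Col13a1, Col23a1 and Col25a1 had -0.52, -0.04 and 0.96, none called.

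**Figure D2:**
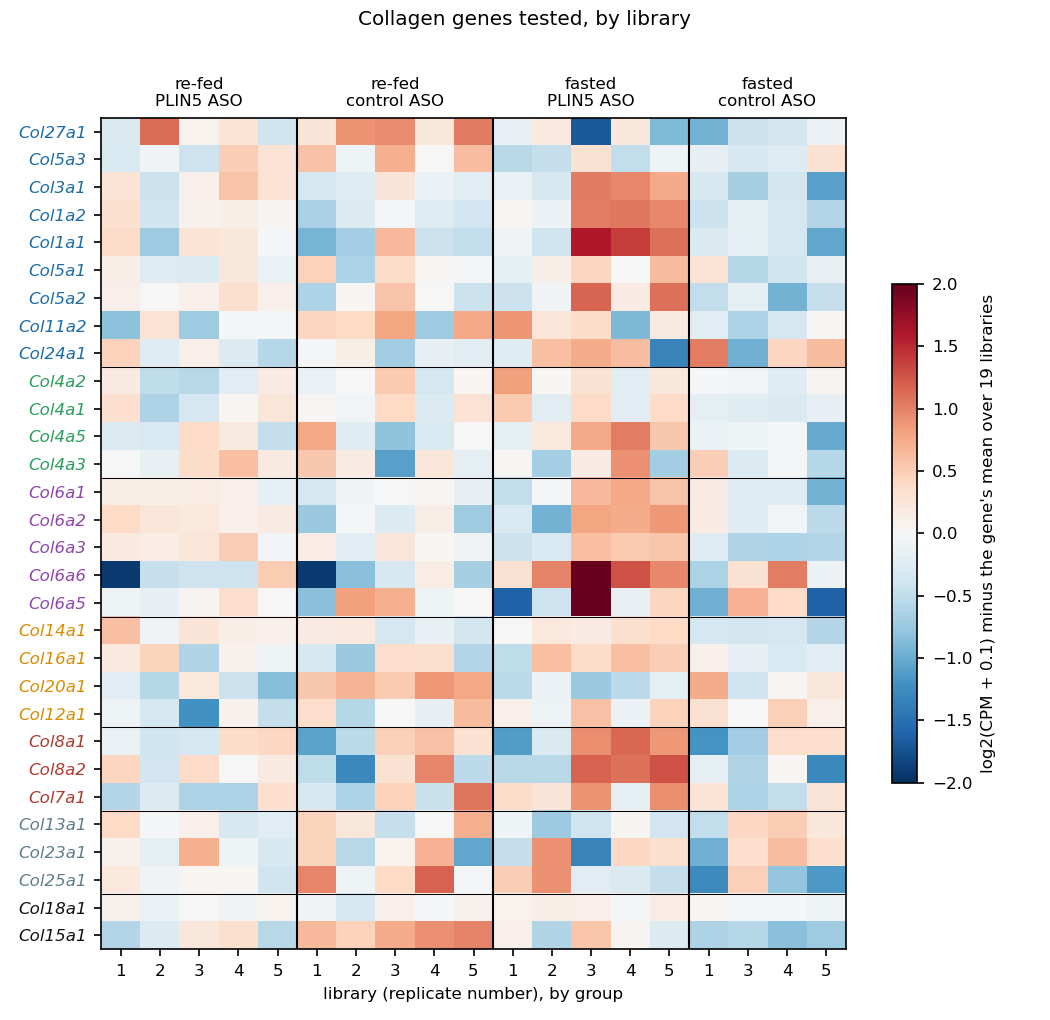
Difference of log2(CPM + 0.1) from the gene's mean over 19 libraries for the 30 collagen genes tested, by library (columns, grouped) and gene (rows, grouped by class in the colours of the FPKM plot); values beyond 2 in either direction are drawn at the end of the scale. In fasted PLIN5 ASO, columns 3, 4 and 5 are red for Col3a1, Col1a2, Col1a1, Col6a1, Col6a2, Col6a3 and Col8a2, and columns 1 and 2 are not.

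Across the collagen genes the 5 fasted PLIN5 ASO libraries fell apart into libraries 3, 4 and 5 and libraries 1 and 2. In 10 of the 30 genes tested (33.3%) libraries 3, 4 and 5 lay above libraries 1 and 2 and above every fasted control library, which was so for 525 of 13293 genes (3.95%). These genes were Col1a1, Col1a2, Col3a1, Col5a2, Col4a5, Col6a1, Col6a2, Col6a3, Col8a1 and Col8a2. The pattern was noticed in these values and is given as a description. Libraries 3 and 5 are clock-shifted and library 4, at 1.61 CPM of Arntl, is not. Saa1, an acute phase gene, was high in a different set of libraries: it stood at 4169, 40.6, 4858, 121 and 2173 CPM in fasted PLIN5 ASO 1 to 5, against 46.5 to 152 CPM in the fasted control libraries. The 15 macrophage markers summed to 192, 172, 447, 223 and 313 CPM, against 152 to 180 CPM, with C1qa and C1qb, subunits of complement C1q, called higher (log2 fold changes of 0.89 and 1.03, adjusted p = 0.0424 and 0.0345). The 15 stellate cell markers summed to 234, 323, 264, 290 and 304 CPM, against 250 to 266 CPM, and none was called. The 10 myofibroblast and portal fibroblast markers summed to 41.1, 49.7, 84.7, 79.8 and 65.8 CPM, against 38.1 to 66.7 CPM, and none of the 9 tested was called. Acta2, the smooth muscle actin of activated stellate cells, stood at 0.898, 0.521, 18.0, 4.25 and 9.21 CPM, against 0.600, 5.10, 7.20 and 0.779 CPM. No stellate cell, macrophage or myofibroblast marker was at 0 in a fasted library. The 5 mesothelial markers summed to 4.16, 1.46, 3.96, 8.21 and 5.79 CPM, against 8.48, 1.31, 1.02 and 1.38 CPM, with Upk1b at 0 in fasted control ASO 3, 4 and 5 and Wt1 at 0 in 4. Of 13 acute phase genes 9 were called higher, against 0.602% of all genes tested. The 16 liver endothelial markers summed to 206, 223, 278, 235 and 266 CPM in the PLIN5 ASO libraries, against 236, 288, 282 and 302 CPM in the controls, with 13 of 16 log2 fold changes negative and none called. The 8 cholangiocyte markers summed to 56.7, 38.6, 69.8, 43.8 and 54.7 CPM in the PLIN5 ASO libraries, against 37 to 43.8 CPM in the controls, and none of the 6 tested was called; Sctr was at 0 in all 5 PLIN5 ASO libraries and in fasted control ASO 5, and Cftr in fasted control ASO 4 and 5. The part of these differences in the collagen values was not tested. In whole liver RNA, more collagen-making cells and more collagen RNA per cell cannot be told apart.

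**Figure D3:**
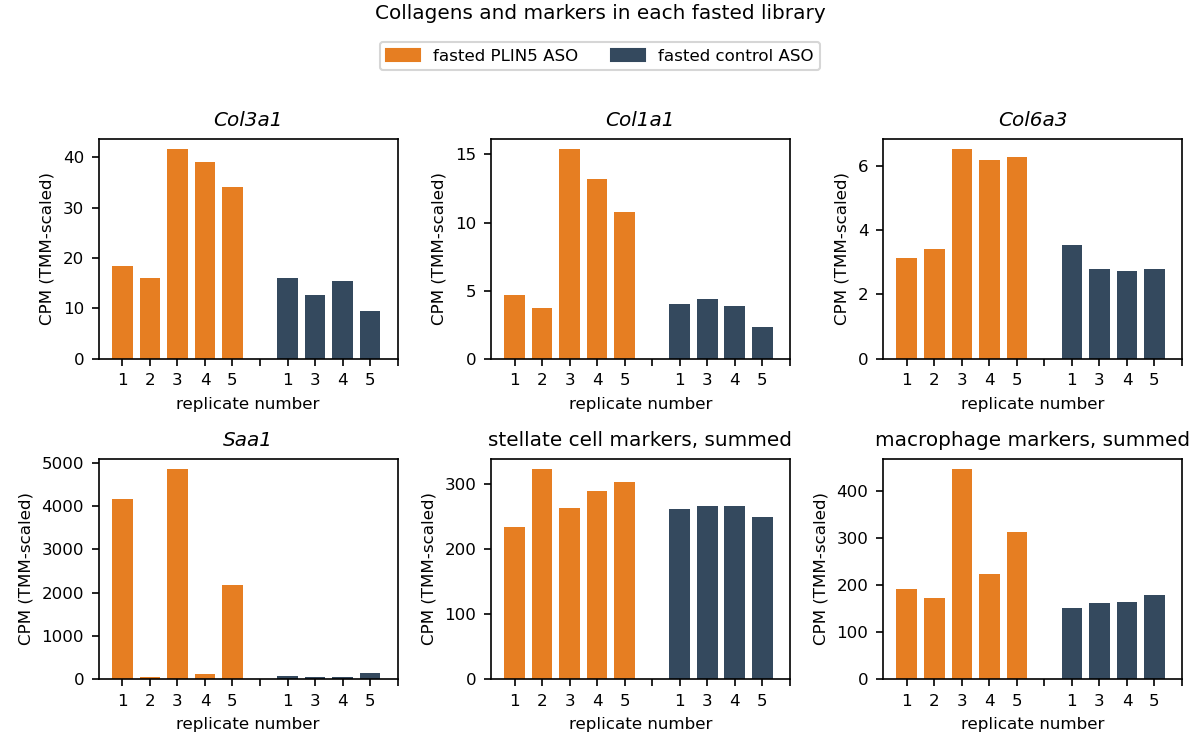
CPM in each fasted library (bars, from 0) of Col3a1, Col1a1, Col6a3 and Saa1 and of the summed stellate cell and macrophage markers, with PLIN5 ASO in orange and control ASO in dark blue. The 3 collagen genes are high in PLIN5 ASO 3, 4 and 5, Saa1 is high in 1, 3 and 5, and the stellate cell sum spans 234 to 323 CPM against 250 to 266 CPM.

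Without fasted PLIN5 ASO 3, 4 or 5, or without fasted control ASO 1, 3, 4 or 5, none of the 30 genes was called, while without fasted PLIN5 ASO 2 there were 5. With 1 fasted library left out, the log2 fold changes stayed at 0.95 to 1.21 for Col1a2, 1 to 1.31 for Col3a1 and 0.58 to 0.68 for Col14a1. Without the 4 clock-shifted libraries the log2 fold changes were 0.80 for Col1a2, 0.87 for Col3a1 and 0.59 for Col14a1 (adjusted p = 0.127, 0.153 and 0.0575 by edgeR's quasi-likelihood test), and with fasted control ASO 3 and 4 as 1 sample they were 1.10, 1.17 and 0.65 (adjusted p = 0.0676, 0.0829 and 0.0782).

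The second comparison set PLIN5 ASO against control ASO in re-fed liver. Here a different pair of collagen genes was called, both lower with PLIN5 ASO: Col20a1, at 0.469 of the control level, and Col15a1, at 0.532 of it. None of the 30 genes was called higher. Of all genes tested 0.812% were called higher, 0.564% lower and 1.38% in either direction. Both genes had every PLIN5 ASO library below every control library, as did 1.74% of all genes, while 2.48% had every one above. The median log2 fold change of the collagen genes tested was -0.02, with 15 of 30 above 0, against -0.01 over all genes.

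Col15a1 encodes the chain of type XV collagen, a proteoglycan of the basement membrane zone around vessels. Its levels were 3.72, 4.61, 6.55, 7.06 and 3.77 CPM in re-fed PLIN5 ASO 1 to 5, against 8.89, 7.78, 9.48, 10.7 and 11.2 CPM in re-fed control ASO 1 to 5. The highest PLIN5 ASO library lay below the lowest control library. The log2 fold change was -0.91 (SE 0.20, adjusted p = 0.0328 by edgeR's quasi-likelihood test), with a 95% interval of -1.33 to -0.49. Col20a1, a FACIT collagen of low abundance in liver, stood at 1.02, 0.782, 1.41, 0.874 and 0.626 CPM, against 1.79, 1.99, 1.77, 2.28 and 2.12 CPM. The groups did not overlap, and the log2 fold change was -1.09 (SE 0.24, 95% interval -1.60 to -0.59, adjusted p = 0.0324 in the same test). Col15a1 spans bases 47208161 to 47313167 of chromosome 4 and Col20a1 180986535 to 181018363 of chromosome 2, both on the plus strand. Col15a1 overlaps the antisense gene Gm12426, and Col20a1 overlaps BX649560.1 on the same strand. Col20a1 totalled 757 counts over the 19 libraries, so its values carry more counting error than those of Col15a1 with 3543.

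The genes called in fasted liver did not pass here. Col1a2 stood at 11.5, 6.91, 9.70, 10.1 and 9.49 CPM in re-fed PLIN5 ASO, against 5.84, 7.56, 8.91, 7.66 and 7.02 CPM in re-fed control ASO, a log2 fold change of 0.37 (95% interval -0.07 to 0.80, adjusted p = 0.352). Col3a1 stood at 24.4, 14.9, 21.6, 29.9 and 24.2 CPM, against 15.8, 17.0, 24.0, 18.5 and 17.4 CPM, a log2 fold change of 0.31 (-0.19 to 0.81, adjusted p = 0.506). Col14a1 stood at 36.9, 23.1, 29.1, 26.7 and 26.1 CPM, against 27.3, 27.7, 19.1, 21.8 and 18.8 CPM, a log2 fold change of 0.30 (0.04 to 0.57, adjusted p = 0.201). In each of the 3 genes the groups overlapped.

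Values of the other classes were mixed in re-fed liver. Of the 9 fibrillar chains 5 had a positive log2 fold change, from -0.73 for Col11a2 to 0.37 for Col1a2, and 4 of 5 beaded filament chains did, led by Col6a2 at 0.53 (adjusted p = 0.316). The basement membrane chains ranged from -0.20 to 0.23. Col27a1 stood at 79.4, 211, 102, 117 and 74.0 CPM in the PLIN5 ASO libraries, against 116, 182, 188, 114 and 200 CPM in the controls, and PLIN5 ASO library 2 was the highest of all; the log2 fold change was -0.46 (SE 0.32, adjusted p = 0.465).

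Kdr, the VEGF receptor of endothelial cells and 1 of 16 liver endothelial markers, was lower with PLIN5 ASO in re-fed liver (log2 fold change -1.06, SE 0.24, adjusted p = 0.0348). The 16 markers summed to 322, 202, 300, 213 and 282 CPM, against 375, 357, 221, 302 and 340 CPM, and 15 of the 16 had a negative log2 fold change, with no other one called. Stab2, a scavenger receptor of sinusoidal endothelium, was at 19.1 to 35.8 CPM against 24.5 to 38.2 CPM. The stellate cell markers summed to 273 to 380 CPM against 226 to 311 CPM. The 8 hepatocyte markers summed to 110061 to 159010 CPM in PLIN5 ASO libraries, against 86343 to 117057 CPM in controls, with 7 of 8 log2 fold changes positive and Ttr, the gene of transthyretin, called higher (log2 fold change 0.39, SE 0.092, adjusted p = 0.0422 by edgeR's quasi-likelihood test). Genes with transcripts over 5000 nt, which 26 of the 30 collagen genes have, had a median log2 fold change of -0.12 in this comparison, and those under 1000 nt had 0.20. With each library's trend with transcript length taken out, Col15a1 stood at -0.83 and Col20a1 at -1.02 and neither was called (adjusted p = 0.0727 and 0.0725 by edgeR's quasi-likelihood test). Neither was called without the clock-shifted libraries (-0.84 and -1.12, adjusted p = 0.0922 and 0.0925), in a fit of only these groups, or without re-fed PLIN5 ASO 1, 2 or 5 or re-fed control ASO 1 or 5, and Col20a1 was not without re-fed PLIN5 ASO 4. With 1 re-fed library left out, the log2 fold changes stayed at -1.05 to -0.81 for Col15a1 and -1.29 to -0.95 for Col20a1. In fasted liver 13 of the 16 endothelial markers were negative too, with a median log2 fold change of -0.26, while Col15a1 had 0.71. The part of the endothelial and hepatocyte markers in the Col15a1 and Col20a1 values was not tested.

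The third comparison set re-fed against fasted liver with control ASO. Col15a1 rose 2.77-fold and Col27a1 2.22-fold with re-feeding, and no collagen gene was called lower. These 2 of 30 genes stand against 6.42% of all genes tested called higher, 6.82% called lower and 13.2% in either direction, so the collagen genes were called no more often than genes at large. Col15a1, Col27a1 and Col6a3 had every re-fed library above every fasted one, as 7.15% of all genes did, while 9.12% had every one below. The median log2 fold change of the collagen genes tested was 0.29, with 24 of 30 above 0, against 0.03 over all genes. Transcripts over 5000 nt, which 26 of the 30 have, had a median of 0.13 here, and those under 1000 nt had -0.11. The collagen median was 0.17, with 22 of 30 above 0, once the length trend was taken out. Without the clock-shifted libraries it was 0.14, with 18 of 28 above 0. Above 0 were also 14 of 15 macrophage, 13 of 16 endothelial, 12 of 15 stellate cell and 4 of 9 myofibroblast and portal fibroblast markers. Of these markers Entpd2 alone was called, and it was lower (log2 fold change -0.66, adjusted p = 0.0424 by edgeR's quasi-likelihood test). The part of these markers in the collagen values was not tested.

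Col15a1 held 8.89, 7.78, 9.48, 10.7 and 11.2 CPM in re-fed control ASO 1 to 5, against 3.63, 3.76, 3.09 and 3.40 CPM in fasted control ASO 1, 3, 4 and 5. The lowest re-fed library lay well above the highest fasted one. The log2 fold change was 1.47 (SE 0.22, adjusted p = 0.000377 by edgeR's quasi-likelihood test), with a 95% interval of 1 to 1.94, and it was called under all 31 alternatives, with adjusted p between 8.37e-09 and 0.00221. Col27a1, the chain of a fibrillar collagen best known from cartilage, stood at 116, 182, 188, 114 and 200 CPM, against 50.2, 72.1, 75.7 and 89.5 CPM. Re-fed libraries 2, 3 and 5 were the highest and libraries 1 and 4 lay nearer the fasted range. Its log2 fold change was 1.15 (SE 0.35, adjusted p = 0.0356 in the same test), and the gene spans bases 63214004 to 63334991 of chromosome 4 on the plus strand. The Col27a1 call was lost without re-fed control ASO 2, 3 or 5, without fasted control ASO 1, 3 or 4, without the clock-shifted libraries (0.93, adjusted p = 0.0604), with fasted control ASO 3 and 4 as 1 sample (adjusted p = 0.0790) and with the length trend taken out (1.02, adjusted p = 0.0766). Over all alternatives its log2 fold change lay between 0.93 and 1.28.

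Col6a3 was higher in every re-fed control library but missed the threshold, with 4.73, 3.61, 5.07, 4.31 and 4.04 CPM in re-fed control ASO, against 3.54, 2.78, 2.73 and 2.80 CPM in fasted control ASO (log2 fold change 0.55, SE 0.21, adjusted p = 0.0795). Col25a1, a transmembrane collagen at 0.760 CPM or less, had 1.45 (SE 0.54, adjusted p = 0.0792), and Col5a3 had 0.49 (SE 0.22, adjusted p = 0.149). Libraries 1 to 5 of re-fed control ASO held 90.9, 56.4, 99.4, 59.9 and 93.2 CPM of Col5a3, and 1, 3 and 5 were above the fasted range. Col1a1, Col1a2 and Col3a1 had 0.17, 0.07 and 0.47, and none of the 3 was called.

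**Figure D4:**
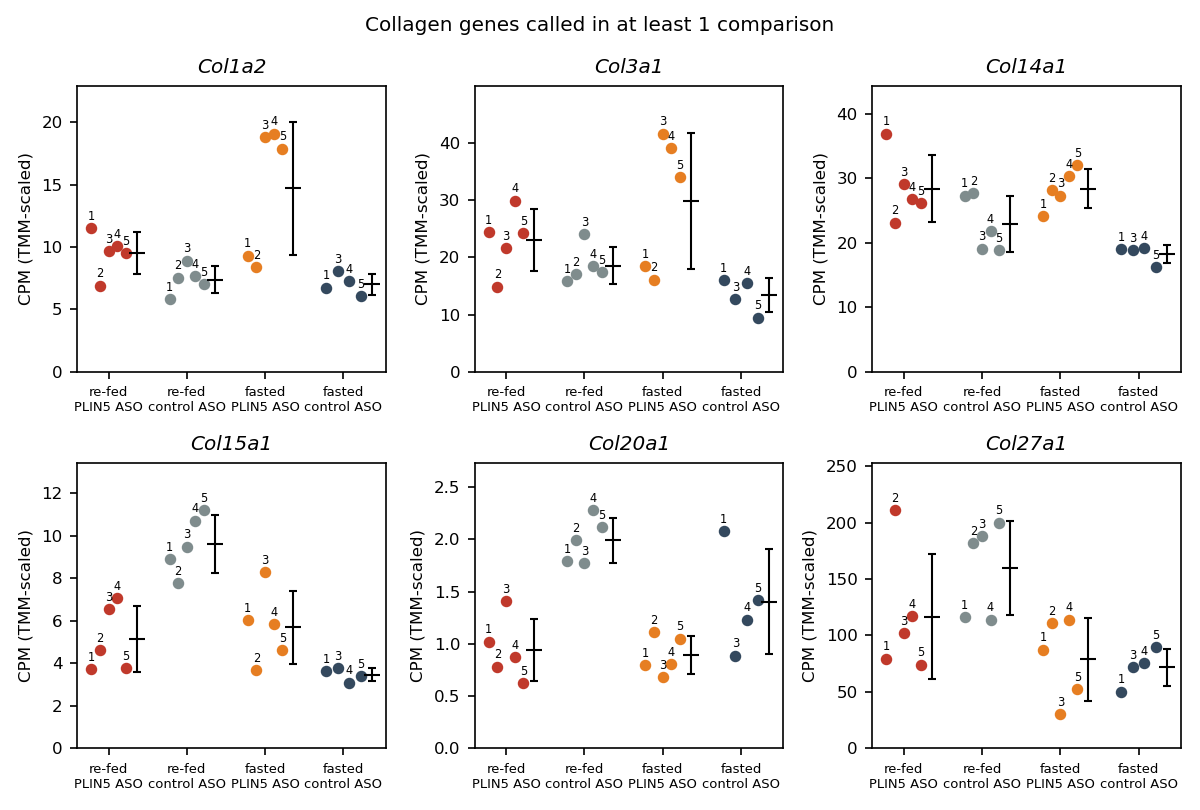
CPM of the 6 collagen genes called in at least 1 comparison, by group, 1 point per library with its replicate number; the bars are the mean and SD of the group (n = 5, and n = 4 for fasted control ASO). Col15a1 is highest in re-fed control ASO (7.78 to 11.2 CPM, with 1 fasted PLIN5 ASO library at 8.28 CPM inside that range), while Col1a2 and Col3a1 are high in libraries 3, 4 and 5 of fasted PLIN5 ASO.

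The fourth comparison set re-fed against fasted liver with PLIN5 ASO. None of the 30 collagen genes passed by edgeR's quasi-likelihood test, where 4.5% of all genes tested were called higher, 4.14% lower and 8.64% in either direction. An unadjusted p under 0.05 was found for 6 of the 30, and for 3118 of all 13293 genes tested. DESeq2 called 2 collagen genes (Col1a2 and Col6a6, both lower), where it called 11.3% of the genes to which it gave an adjusted p. How many of the 33 collagen genes had one was not counted. In no collagen gene were the groups free of overlap, where 3.94% of all genes had every re-fed library above every fasted one and 3.63% below. The median log2 fold change was -0.33, with 6 of 30 above 0, against 0.00 over all genes. Above 0 were 0 of 15 macrophage, 1 of 9 myofibroblast and portal fibroblast, 6 of 15 stellate cell and 11 of 16 endothelial markers. The stellate cell marker Hand2 was called lower (log2 fold change -0.47, adjusted p = 0.0298 by edgeR's quasi-likelihood test). Of 13 acute phase genes 9 were called lower and 1 higher. The part of these lists in the collagen values was not tested. Col6a6, a type VI chain, had -1.87 (SE 0.59, adjusted p = 0.0569), at 0 to 0.437 CPM in re-fed PLIN5 ASO and 0.366 to 1.56 CPM in fasted PLIN5 ASO, and Col1a2 had -0.62 (SE 0.20, adjusted p = 0.0643). Col1a1 had -0.87 (SE 0.35, adjusted p = 0.140) and Col3a1 -0.38 (SE 0.24, adjusted p = 0.359). Col15a1, which rose with re-feeding under control ASO, had -0.15 (95% interval -0.58 to 0.28, adjusted p = 0.707) and Col27a1 0.56 (-0.11 to 1.24, adjusted p = 0.311). Without the clock-shifted libraries, 2 of which are in fasted PLIN5 ASO, the median of the 28 collagen genes then tested was -0.11. This comparison shares its fasted libraries with the first and its re-fed libraries with the second, so its values are not independent of theirs. The same holds for the third comparison, which shares the fasted control libraries with the first and the re-fed control libraries with the second.

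**Figure D5:**
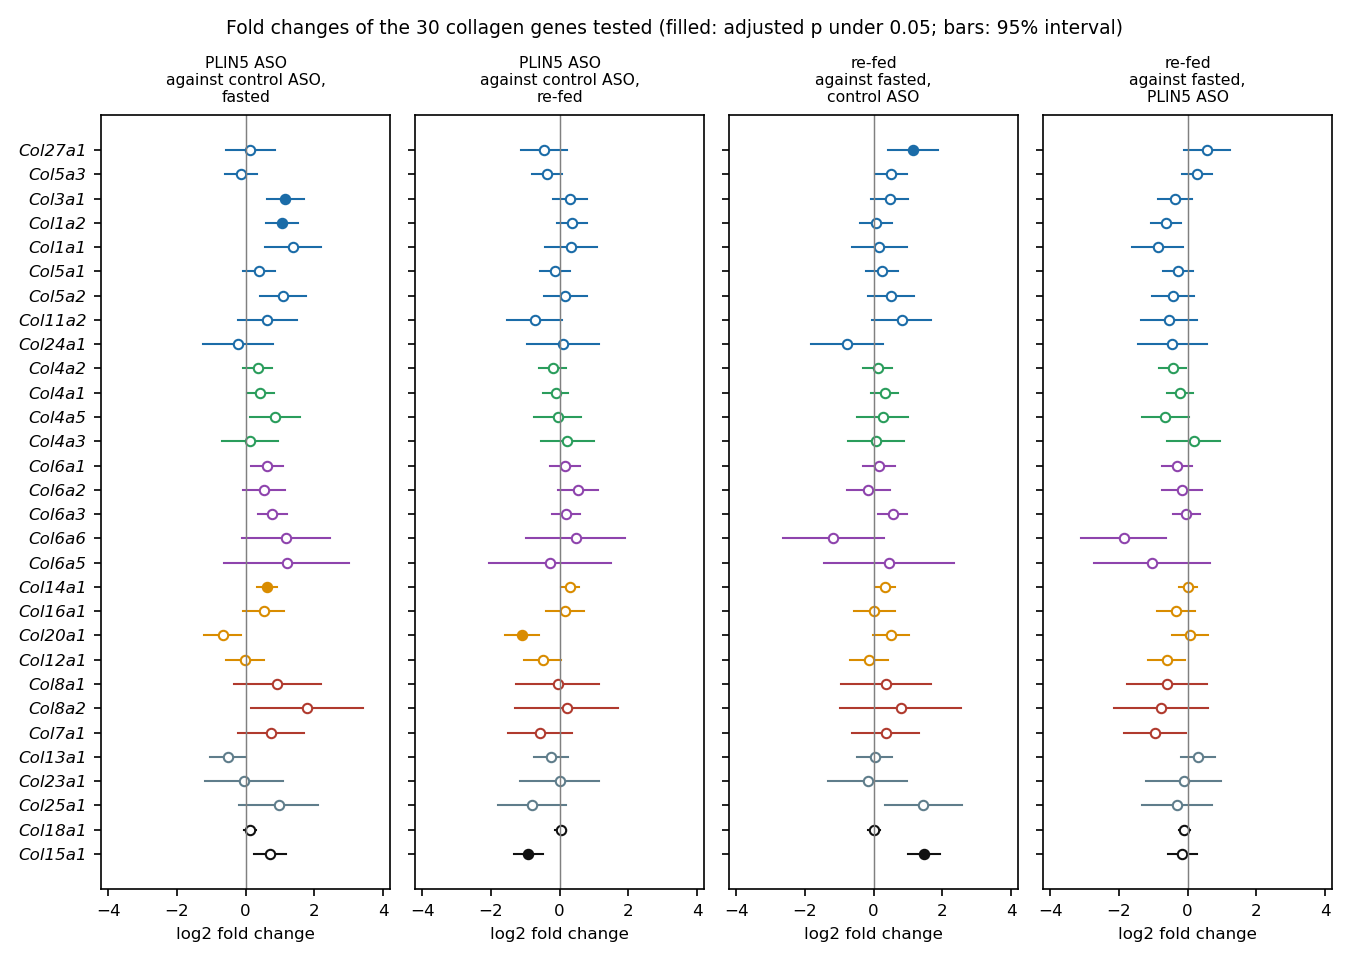
Log2 fold changes of the 30 collagen genes tested in the 4 comparisons (points) with their 95% intervals (bars), coloured by class; filled points passed the threshold. In fasted liver 24 of 30 points lie right of 0, and with re-feeding under PLIN5 ASO 6 of 30 do.

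The interaction term asks whether the PLIN5 ASO difference itself changed with feeding. No collagen gene was called by edgeR's quasi-likelihood test, where 0.0226% of all genes tested (3 genes) were, 0.015% higher and 0.00752% lower. An unadjusted p under 0.05 was found for 7 of the 30, and for 1991 of all 13293 genes tested. DESeq2 called 1 collagen gene, Col15a1, where it called 0.802% of the genes to which it gave an adjusted p. How many of the 33 collagen genes had one was not counted. The lowest adjusted p was that of Col15a1, at 0.106, with an interaction of -1.62 on the log2 scale (SE 0.30, 95% interval -2.25 to -0.99). Its PLIN5 ASO difference was 0.71 in fasted liver and -0.91 in re-fed liver. Col3a1 and Col1a2 had interactions of -0.84 and -0.70 (adjusted p = 0.276 and 0.290). Thus the calls of Col1a2, Col3a1 and Col14a1 in fasted liver and their absence in re-fed liver were not shown to differ.

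Genes that make, process and read collagens were followed in lists. The counts in these lists stand beside 1.17% of all genes tested called with PLIN5 ASO in fasted liver, 1.38% in re-fed liver, 8.64% between re-fed and fasted liver given PLIN5 ASO, and 13.2% between re-fed and fasted liver given control ASO. Of 19 tested genes for folding and modification in the endoplasmic reticulum none was called with PLIN5 ASO in either feeding state, and the one with the lowest p in fasted liver was P3h3, a prolyl 3-hydroxylase family member (log2 fold change 0.68, adjusted p = 0.206). With re-feeding under control ASO 3 rose and 1 fell, where 6.42% of all genes tested were called higher and 6.82% lower: Serpinh1, the collagen chaperone HSP47 (0.59, adjusted p = 0.0269), Ppib, a prolyl isomerase (0.61, adjusted p = 0.00407), and Fkbp14 (0.52, adjusted p = 0.0474) rose, and Mia3, which carries procollagen out of the endoplasmic reticulum, fell by 0.47 on the log2 scale (adjusted p = 0.000753). Under PLIN5 ASO Mia3 alone was called, and it fell by 0.34 (adjusted p = 0.00663).

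Of 10 genes for procollagen processing and crosslinking Pcolce, the enhancer of C-terminal procollagen cleavage, had 0.62 with PLIN5 ASO in fasted liver (SE 0.15, adjusted p = 0.0501) and rose with re-feeding under control ASO (0.53, adjusted p = 0.0269). Adamts14, an N-terminal procollagen protease, rose with re-feeding under PLIN5 ASO (0.87, adjusted p = 0.0403). Of 10 genes for collagen breakdown and its inhibitors Mmp19 rose with re-feeding under PLIN5 ASO and under control ASO (0.34 and 0.35, adjusted p = 0.0431 and 0.0377), and none was called with PLIN5 ASO. Of 6 collagen receptor genes Itga1 rose with re-feeding under control ASO (0.48, adjusted p = 0.0161), and Itgb1 fell by 0.17 under PLIN5 ASO (adjusted p = 0.0440).

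Of 18 other matrix genes Lum, which encodes the fibril-binding proteoglycan lumican, was the only one called with PLIN5 ASO in fasted liver, and it was higher: 5.19, 4.46, 8.67, 10.7 and 9.98 CPM, against 3.40, 4.12, 3.72 and 3.26 CPM in the control libraries (log2 fold change 1.10, SE 0.24, adjusted p = 0.0275 by edgeR's quasi-likelihood test). Libraries 3, 4 and 5 were the high ones, as for Col1a2 and Col3a1. With re-feeding under control ASO Nid2, a basement membrane linker, rose (1.55, adjusted p = 0.0209). In TGF-beta signalling, the pathway that drives collagen transcription in stellate cells, the receptor gene Tgfbr1 rose with re-feeding under PLIN5 ASO and under control ASO (0.41 and 0.36, adjusted p = 0.00560 and 0.0127), and Smad7, an inhibitor of the pathway, rose under PLIN5 ASO (0.80, adjusted p = 0.00568).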

How the data were processed

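Liver RNA behind the 19 mouse libraries came from RNeasy columns and went into standard Illumina libraries, per the labels' protocols. Per the submitters' processing notes, the builds were mm10 and GRCm38 and the tools Subread, edgeR, Cuffdiff 2.2.1, HISAT2 2.0.2 and FastQC, with no roles attached. The annotation, the use of strand and the handling of multi-mapped reads were not stated. Whole-number read counts per gene symbol and FPKM per gene symbol are the 2 tables the authors deposited.

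Counts were fitted in R 4.3.3 with edgeR 4.0.16 after TMM normalisation and filterByExpr by group (minimum count 10). A single model took all 19 libraries, with 1 coefficient for each group, and the two-sided quasi-likelihood F test was adjusted by Benjamini-Hochberg over 13293 genes at a threshold of 0.05. Intervals are 95%. CPM are per TMM-scaled library; levels between genes use the deposited FPKM. Positions and lengths are from GENCODE vM21 and promoters from RefSeq, matched by symbol (27 of 33). The model was checked on simulated data.

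The collagen genes, the gene lists and the naming rules were chosen with earlier results of these data known. Named are genes called, with library values for the 6 collagen genes called and the 6 highest in FPKM, at most 4 called genes per list, or else the gene with the lowest p; library values of Acta2, Stab2, Lum, Col1a1 and Col6a3 and the counts of the untested genes were added after the values were seen. Lepre1, Leprel1, Leprel2, Leprel4, Ccn2 and Emr1 were listed under symbols that the count table does not use. The list of TGF-beta signalling is reported here in part.

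Alternatives were RLE size factors, DESeq2 1.42.0, no filter or one of 1 CPM in 4 libraries, fits limited to the groups of a comparison, a block for the replicate number, leaving out each library, and limma 3.58.1 on log2(FPKM + 1) or log2(FPKM + 0.1). The limma fits kept genes with a mean of 0.5 FPKM or more, apart from a fit on log2(FPKM + 1) without a filter. Chosen after seeing the data were leaving out the 4 clock-shifted libraries, counting fasted control ASO 3 and 4 as 1 sample, and offsets for transcript length in 25 bins.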

Additional observations from a re-analysis of the deposited data

Results flagged for a closer look

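Col14a1 in fasted control ASO 5 stood at 16.2 CPM, below the other 3 libraries of its group at 18.8 to 19.2 CPM, a gap large for the range of the group by Dixon's test. It was the only such case in 36 tests, 4 groups for each of 9 collagen genes (the 6 called and the abundant ones), where chance flags about 1 in 20. Without this library the log2 fold change of Col14a1 with PLIN5 ASO in fasted liver was 0.58 and it was not called (adjusted p = 0.112 by edgeR's quasi-likelihood test), and the call was lost without any other fasted control library as well (0.64 to 0.65).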

How the results depend on the processing

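No collagen fold change that was called changed its direction under any alternative. The count of collagen genes called with PLIN5 ASO in fasted liver (3) was 7 with DESeq2, 1 in a fit of only the groups compared (Col14a1), and 0 with limma on log2(FPKM + 1) without a filter, without the 4 clock-shifted libraries, or with fasted control ASO 3 and 4 as 1 sample; it ranged from 0 to 5 when single libraries were left out. The count in re-fed liver (2) was 0 in a fit of only the groups compared and without the clock-shifted libraries. It was also 0 with the length trend taken out, and 0 to 2 with libraries left out. Limma on log2(FPKM + 1) and on log2(FPKM + 0.1), limited to genes with a mean of 0.5 FPKM or more, called 1 (Col15a1). Col20a1, at a mean of 0.197 FPKM, was not tested in these limma fits. For re-feeding under control ASO (2) the count was 1 (Col15a1) with fasted control ASO 3 and 4 as 1 sample. It was also 1 (Col15a1) with the length trend taken out, and 1 to 3 with libraries left out. For re-feeding under PLIN5 ASO (0) it was 2 with DESeq2, 1 (Col6a6) with the replicate block, and 0 to 2 with libraries left out. For the interaction (0) it was 1 with DESeq2 and 0 to 1 with libraries left out. Within the 4 comparisons, deviations of same-numbered libraries correlated at -0.212 to 0.168. Fasted PLIN5 ASO was not set against re-fed control ASO in this way, although replicates 3 and 5 are clock-shifted in both groups. Whether the replicate numbers mark a shared batch was not tested. The replicate block also added Col1a1 in fasted liver (4 calls) and left the other 3 counts as they were. The cause of these differences was not tested beyond what each alternative takes out. Over all genes, the fasted calls (156) numbered 434 with DESeq2, 253 with the replicate block, 70 with limma on log2(FPKM + 1) without a filter, 36 with fasted control ASO 3 and 4 as 1 sample and 22 to 188 with libraries left out, and the re-fed calls (183) numbered 607 with DESeq2, 290 with the replicate block, 45 to 341 with libraries left out, 4 in a fit of only the groups compared, 45 without the clock-shifted libraries and 50 with the length trend taken out. Re-feeding calls under control ASO (1759) numbered 1167 without the clock-shifted libraries, 1139 with fasted control ASO 3 and 4 as 1 sample and 1112 to 2014 with libraries left out, those under PLIN5 ASO (1148) numbered 741 to 1232 with libraries left out, and interaction calls (3) numbered 96 with DESeq2 and 0 with fasted control ASO 3 and 4 as 1 sample or the length trend taken out. Fold changes were smaller on the log2(FPKM + 1) scale, where Col20a1, in the fit without a filter, had -0.21 and Col15a1 had -0.49 in re-fed liver. Among collagen genes standard errors in the 4 comparisons ran up to 0.91 on the log2 scale, for Col6a5.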

Other observations

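The 3 collagen genes too low to test were at most 0.421 CPM. Col4a6, a type IV chain, held 2, 1, 12, 12 and 10 counts in fasted PLIN5 ASO 1 to 5, against 0, 2, 3 and 1 counts in fasted control ASO 1, 3, 4 and 5. The counts were highest in the 3 libraries in which Col1a2 and Col3a1 were high. Col4a4, another type IV chain, held 0, 5, 6, 8 and 10 counts, against 2, 0, 5 and 3 counts. Col9a3, a chain of the FACIT collagen IX, held 9, 6, 9, 3 and 4 counts, against 9, 2, 4 and 4 counts. The groups overlapped in all 3 genes.

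The ratio of chains that form 1 trimer varied between libraries. Col1a1 over Col1a2, in deposited FPKM, was 0.507, 0.458, 0.893, 0.792 and 0.676 in fasted PLIN5 ASO 1 to 5, against 0.619, 0.600, 0.584 and 0.462 in fasted control ASO. It was 0.483 to 0.641 in re-fed PLIN5 ASO and 0.444 to 0.997 in re-fed control ASO, where library 3, which is clock-shifted, had 0.997. Col4a1 over Col4a2 spanned 0.655 to 0.974 over all 19 libraries, with a median of 0.809.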
